A study of Mus musculus with 4 samples.

Results

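Inhibin, activin and BMP signalling in the mouse fetal gonad was followed through 10 genes chosen by name, which encode the inhibin and activin subunits Inha, Inhba and Inhbb, the BMP ligands Bmp4 and Bmp7, the AMH receptor Amhr2, the activin receptors Acvr2a and Acvr2b, and the BMP receptors Bmpr1a and Bmpr2. The deposited tables list 40999 features, all 10 genes are among them, and all 10 are among the 20114 features that passed a filter on low counts. The tissue came from C57BL/6J wild-type embryos sampled daily, with E11.5 (E, embryonic day) the earliest and E14.5 the latest, and gonads of XX and XY embryos were mixed in equal numbers, so levels in the 2 sexes cannot be told apart. Each time point drew on at least 6 embryos and gave 1 total RNA library, 4 libraries in all. The E11.5 tissue was the whole genital ridge together with the mesonephros, the transient embryonic kidney beside it, and the later gonads were freed of it. No time point has a replicate, so no difference between libraries has a replicate check, no p-value is given, and every interval covers counting error only.

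Activins and inhibins are secreted dimers of the TGF-β superfamily. A pair of β subunits, βA from Inhba or βB from Inhbb, makes an activin, whereas a β subunit joined to the α subunit from Inha makes an inhibin, which opposes activin at its receptors. Activins bind the type II receptors encoded by Acvr2a and Acvr2b, BMPs bind Bmpr2 and the activin type II receptors, and each type II receptor then activates a type I receptor such as that of Bmpr1a, which phosphorylates SMAD proteins. Amhr2 is the type II receptor of anti-Müllerian hormone (AMH), a Sertoli cell product that makes the Müllerian duct regress in males. In the fetal testis, activin A from Leydig cells is known to stimulate Sertoli cell proliferation, and inhibin α is made by Sertoli and Leydig cells.

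From E11.5 to E14.5 the libraries held 31266481, 25593453, 31752562 and 31526303 counts, and 3 counts, the most that a count of 0 allows, were 0.0945 to 0.117 CPM (counts scaled to the library's size). An 18S ribosomal RNA gene, Rn18s-rs5, took 40.7% of the counts at E14.5 against 1.03% to 9.06% in the other libraries. Levels are therefore given as CPM per kilobase of exon on a TMM scale, which matches the bulk of features between libraries, and a gene is said to have risen or fallen when its log2 fold change on that scale was at least 1 in size (2-fold). All 5 markers of gonadal somatic cells (Nr5a1, Gata4, Wt1, Emx2 and Lhx9) were detected in every library, with summed levels of 188, 271, 248 and 211 in order of time. In bulk tissue, fewer cells of a type and less RNA per cell cannot be told apart.

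Among the 10 genes, Inha and Inhba showed the largest differences after E12.5 on the TMM scale. All 3 subunit genes rose between E11.5 and E12.5. On the TMM scale Inhba then rose again at E13.5 and was higher at E14.5 by less than 2-fold. Inha was higher on that scale at each later time point by less than 2-fold a day, and Inhbb stayed within 2-fold of its E12.5 level. With total counts or the deposited TPM, Inha and Inhba were lower at E14.5 than at E13.5. At E13.5 and E14.5 Inha had the highest level of the 10 genes.

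Inha lies on chromosome 1 (mm10, 75507077 to 75510354, plus strand, 2 exons, 1463 exonic bases). From E11.5 to E14.5 it had 416, 1436, 3112 and 2007 counts. Its TMM-scaled level was 8.30 (95% counting interval 7.52 to 9.13), 31.3 (29.7 to 32.9), 53.8 (51.9 to 55.7) and 72.9 (69.7 to 76.1) in the same order. The level was lowest at E11.5 and the intervals of the 4 libraries did not overlap. From E11.5 to E12.5 the level rose by 1.91 on the log2 scale (95% interval 1.76 to 2.08), or 3.77-fold. The next steps were smaller, with log2 differences of 0.78 (0.69 to 0.87) from E12.5 to E13.5 and 0.44 (0.36 to 0.52) from E13.5 to E14.5. Over E12.5 to E14.5, both without mesonephros, they added up to a rise of 1.22 (1.12 to 1.32), or 2.33-fold. That call depends on the scale, as the log2 difference of Inha at E14.5 against E12.5 was 0.18 with total counts and -0.27 on the ratio of the deposited TPM. Against E13.5 its sign turned, to -0.62 and -1.18.

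Inhba, on chromosome 13 (mm10, 16011832 to 16027723, plus strand, 5 exon blocks, 2511 exonic bases), was the scarcest of the 10 genes at E11.5. It had 38 counts there and 231, 796 and 734 counts on the following days. Its TMM-scaled level was 0.44 (0.31 to 0.61), 2.93 (2.57 to 3.34), 8.01 (7.46 to 8.59) and 15.5 (14.4 to 16.7). On this scale each library stood above the one before it beyond the counting interval. The level rose by 2.72 on the log2 scale (2.23 to 3.27), or 6.60-fold, between E11.5 and E12.5 and by 1.45 (1.24 to 1.67), or 2.73-fold, between E12.5 and E13.5. Between E13.5 and E14.5 the log2 difference was 0.95 (0.81 to 1.10), which is under the line of 2-fold. Over E12.5 to E14.5 the rise was 2.40 (2.19 to 2.62), or 5.29-fold. With total counts and with the deposited TPM these E14.5 values of Inhba were 1.37 and 0.92 against E12.5, the second no longer past 2-fold, and -0.11 and -0.66 against E13.5, so that the direction turned. In the step to E12.5 its change ranked 139 from the top of 13626 features with 100 counts or more in either library.

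Inhbb, on chromosome 1 (mm10, 119415465 to 119422248, minus strand, 2 exons, 4255 exonic bases), had 1265, 3521, 3297 and 1789 counts in order of time. Its TMM-scaled level was 8.68 (8.20 to 9.17), 26.4 (25.5 to 27.3), 19.6 (18.9 to 20.3) and 22.3 (21.3 to 23.4). The level was lowest at E11.5 and highest at E12.5. It rose by 1.60 on the log2 scale (1.51 to 1.70), or 3.04-fold, in the step to E12.5. The log2 difference was then -0.43 (-0.50 to -0.36) at E13.5 against E12.5 and 0.19 (0.11 to 0.27) at E14.5 against E13.5, both under 2-fold.

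**Figure D1:**
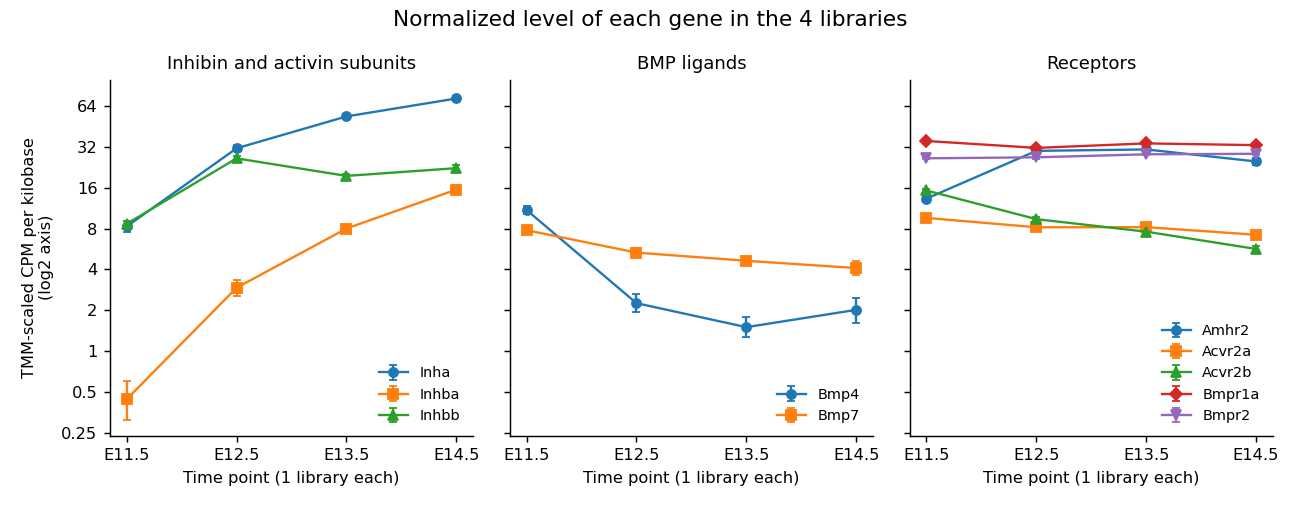
TMM-scaled CPM per kilobase (log2 axis) of the 10 genes at the 4 time points, 1 library each, with bars for the exact 95% counting interval. On this scale Inha and Inhba run upwards over all 4 time points and end at 72.9 and 15.5 (with total counts or TPM the step to E14.5 turns downwards), Bmp4 drops from 10.97 to 2.26 between E11.5 and E12.5, and Bmpr1a and Bmpr2 stay between 26.4 and 35.4.

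The plot of levels by time point shows the subunits, ligands and receptors in separate panels. Because every gene of a library shares its depth and scale, ratios between genes of 1 library need no scaling between libraries, and the same ratios came out of the deposited TPM. The level of Inhbb was 19.7 times that of Inhba at E11.5 (14.2 to 27.9), and 8.995 (7.87 to 10.3), 2.44 (2.26 to 2.64) and 1.44 times (1.32 to 1.57) on the following days. From E12.5 to E14.5 this ratio fell by 2.64 on the log2 scale (-2.87 to -2.42, Wald counting interval), or 6.25-fold. Inhbb was still the more abundant β subunit mRNA at E14.5.

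The ratio of Inha to the β subunits moved in opposite directions for the 2 of them. From E11.5 to E14.5 Inha stood at 0.956 (0.854 to 1.07), 1.19 (1.12 to 1.26), 2.75 (2.61 to 2.88) and 3.26 (3.06 to 3.48) of the level of Inhbb. The step from E12.5 to E13.5 carried most of this, with a log2 increase of the ratio of 1.21 (1.10 to 1.32). Against Inhba, Inha stood at 18.8 (13.46 to 26.9), 10.7 (9.28 to 12.3), 6.71 (6.21 to 7.26) and 4.69 (4.31 to 5.11). Of the summed level of the 3 subunit genes, Inha made up 47.6%, 51.6%, 66.1% and 65.8% in order of time. Inhba went from 2.54% to 4.84%, 9.85% and 14.02% of that sum. Inhbb went from 49.8% to 43.5%, 24.1% and 20.2%.

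**Figure D2:**
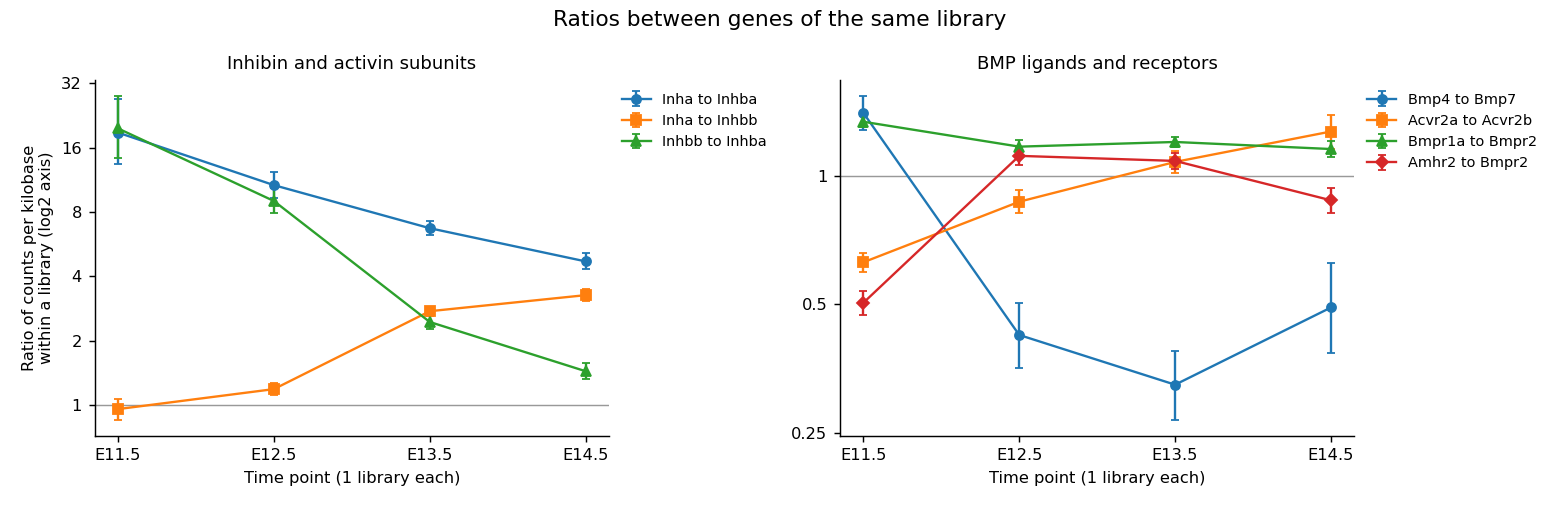
Ratio of counts per kilobase of exon (log2 axis) between genes of the same library for 7 pairs at the 4 time points, 1 library each, with bars for the exact 95% counting interval and a line at a ratio of 1. Inhbb to Inhba descends from 19.7 to 1.44, Inha to Inhbb climbs from 0.956 to 3.26, and Acvr2a to Acvr2b crosses 1 between E12.5 and E13.5.

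The upstream sequences of the 2 β subunit genes are shown because the changes of these genes differed after E12.5. They come from RefSeq promoter windows on GRCm38.p6, the assembly that mm10 is built on, which run from 250 bases before to 50 bases after a gene's start. The stretches printed lie before the first exon of the deposited annotation and run 5′ to 3′ on the gene's strand, with each CpG in capitals. Inhba has 231 bases at chr13:16011601-16011831, plus strand, and Inhbb has 250 bases at chr1:119422249-119422498, minus strand.
Inhba: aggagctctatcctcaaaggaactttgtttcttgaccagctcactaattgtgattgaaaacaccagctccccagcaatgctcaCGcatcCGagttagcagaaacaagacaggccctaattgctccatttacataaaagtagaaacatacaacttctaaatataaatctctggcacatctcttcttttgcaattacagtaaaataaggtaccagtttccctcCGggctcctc
Inhbb: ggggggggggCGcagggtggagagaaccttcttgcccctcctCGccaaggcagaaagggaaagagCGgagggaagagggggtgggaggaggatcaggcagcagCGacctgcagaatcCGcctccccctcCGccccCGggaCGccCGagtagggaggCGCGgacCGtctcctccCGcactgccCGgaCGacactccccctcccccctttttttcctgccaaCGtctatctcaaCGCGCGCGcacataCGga
The Inhba stretch holds 3 CpG and 41.6% G and C, and the Inhbb stretch holds 21 CpG and 68.0%. Over the 250 bases before the start, the G and C content of Inhba (43.2%) was above that of 19.0% of all windows and that of Inhbb (68.0%) above that of 87.8%. These are descriptions of the sequences, and their part in the levels was not tested.

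Bmp4 and Bmp7 encode secreted BMPs with roles in mesenchyme, nephric tissue and germ cell formation, and the 2 ligands differed in the step to E12.5. Bmp4 fell there, and Bmp7 was lower by less than 2-fold. Bmp4 lies on chromosome 14 (mm10, 46383520 to 46390599, minus strand, 6 exon blocks, 2373 exonic bases). From E11.5 on it had 892, 168, 141 and 90 counts. Its TMM-scaled level was 10.97 (10.3 to 11.7), 2.26 (1.93 to 2.62), 1.501 (1.26 to 1.77) and 2.01 (1.62 to 2.48). The E11.5 library stood alone above the other 3, and the intervals at E12.5 and E14.5 overlapped. Bmp4 fell by 2.28 on the log2 scale (-2.53 to -2.04), or 4.86-fold, between E11.5 and E12.5. The later log2 differences were -0.59 (-0.92 to -0.26) at E13.5 and 0.43 (0.03 to 0.82) at E14.5 against the time point before, and -0.16 (-0.55 to 0.21) at E14.5 against E12.5. Exons of Bmp4 share 89 bases with Gm15217 and 71 bases with LOC102638002 on the other strand, which had at most 2 and 37 counts in a library.

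Bmp7, on chromosome 2 (mm10, 172868012 to 172940321, minus strand, 7 exons, 3670 exonic bases), had 980, 613, 673 and 283 counts in order of time. Its TMM-scaled level was 7.79 (7.31 to 8.30), 5.32 (4.91 to 5.76), 4.63 (4.29 to 4.997) and 4.096 (3.63 to 4.60). The level was highest at E11.5, and the intervals of neighbouring later time points overlapped. The log2 differences from the time point before were -0.55 (-0.70 to -0.40), -0.20 (-0.36 to -0.04) and -0.18 (-0.38 to 0.02). Within a library, Bmp4 stood at 1.41 of the level of Bmp7 at E11.5 (1.28 to 1.54) and at 0.424 (0.355 to 0.504), 0.324 (0.268 to 0.389) and 0.492 (0.384 to 0.626) on the following days. The ratio fell by 1.73 on the log2 scale (-2.01 to -1.45) in the step to E12.5.

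Most mesonephros and sympathetic markers also fell in that step, and the mesonephros was dissected away from E12.5 on. The summed level of 7 mesonephros markers (Pax2, Pax8, Lhx1, Wnt9b, Gata3, Cdh16 and Osr1) was 44.4 at E11.5 and 9.35 to 12.7 later, 5 of the 7 fell in the step to E12.5, and none was at 0 in any library. Lhx1 was at 2.22 at E11.5 and 3.47 at E12.5. At E14.5 against E13.5, 3 of the 7 rose on the TMM scale, where 7.66% of all features did. Of these, Wnt9b went from 4 to 8 counts and Cdh16 from 29 to 67. The third, Osr1, had 172 and 165 counts, and its deposited TPM went down from 4.45 to 2.92. The 3 sympathetic markers (Th, Dbh and Sox10) summed to 7.33 at E11.5 and 3.50 to 4.25 later, and 2 of them fell in the step to E12.5. Th fell from 93 to 2 counts and Dbh from 315 to 3, no more than the 3 counts that a count of 0 allows. Sox10 went the other way, with a level of 2.11 at E11.5 and 4.18 at E12.5, and made up most of the E12.5 sum. The part of these tissues in the levels of Bmp4, Bmp7, Acvr2b and the other genes at E11.5 was not tested. Gonadal cell types moved in the same step as well. The 5 Sertoli markers (Sox9, Amh, Dhh, Cyp26b1 and Ptgds) summed to 30.9, 268, 238 and 262 over the 4 time points, and the 5 fetal Leydig markers (Cyp17a1, Cyp11a1, Hsd3b1, Star and Insl3) to 5.60, 80.0, 350 and 584. Insl3 was at 0 counts at E11.5. The 6 pregranulosa markers (Foxl2, Fst, Wnt4, Rspo1, Irx3 and Bmp2) summed to 44.9, 71.8, 95.2 and 75.8, and the 5 germ cell markers (Dazl, Ddx4, Pou5f1, Dppa3 and Mael) to 7.76, 124, 153 and 139. On the TMM scale all 5 Leydig markers were higher in each library than in the one before. So were 1 Sertoli marker (Ptgds), 1 pregranulosa marker (Foxl2, from 2.21 to 17.4) and 1 germ cell marker (Mael, from 0.0755 to 19.6). The log2 difference of Ptgds at E13.5 against E12.5 was 0.09 (-0.01 to 0.19). With total counts the step to E14.5 turned downwards for all of these but Mael, such as Cyp17a1 from 331 to 277 CPM. On the deposited TPM it turned downwards for Mael as well (17.1 to 13.1). The Leydig, Sertoli, pregranulosa and germ cell shares of the subunit levels were not tested.

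**Figure D3:**
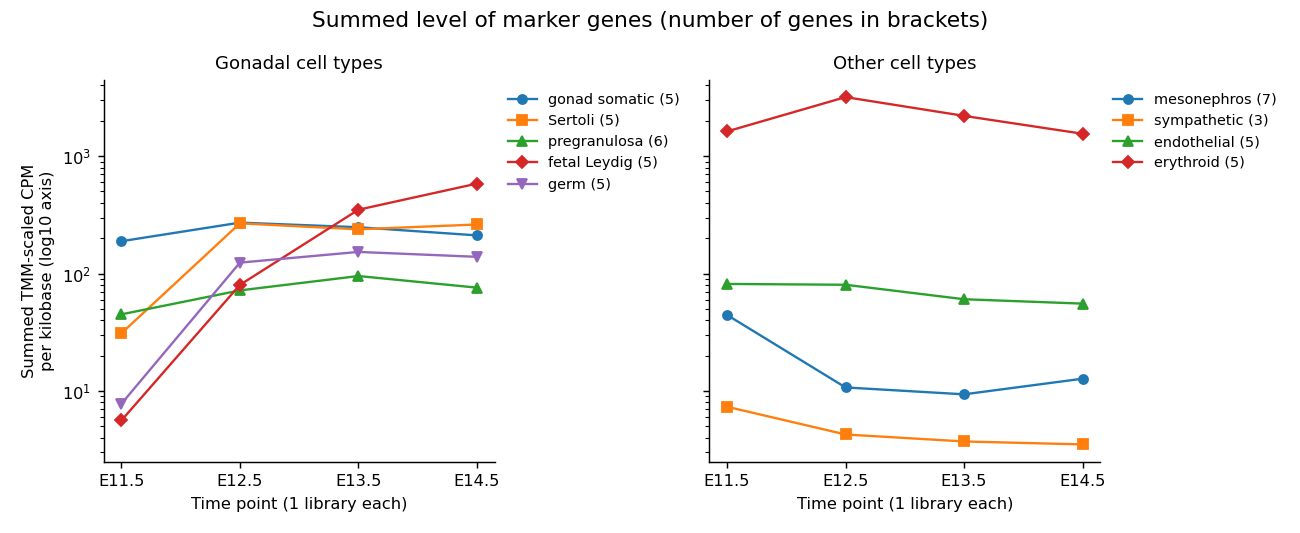
Summed TMM-scaled CPM per kilobase (log10 axis) of 9 marker lists at the 4 time points, 1 library each, with the number of genes of a list in brackets. The mesonephros sum drops from 44.4 to 10.7 between E11.5 and E12.5, and the fetal Leydig sum climbs from 5.60 to 584.

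The plot of marker sums also includes endothelial markers, which summed to 55.4 to 81.5, and erythroid markers, which summed to 1552 to 3185. Neither list had a marker at 0 in any library.

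Among the receptors, Amhr2 rose once and the other 4 stayed within 2-fold in every comparison. Amhr2 lies on chromosome 15 (mm10, 102445028 to 102454640, plus strand, 12 exon blocks, 2157 exonic bases). From E11.5 to E14.5 it had 984, 2027, 2619 and 1016 counts. Its TMM-scaled level was 13.3 (12.49 to 14.2), 29.95 (28.7 to 31.3), 30.7 (29.5 to 31.9) and 25.02 (23.5 to 26.6). E11.5 was lowest, E12.5 and E13.5 were not told apart by their intervals, and E14.5 lay between. Amhr2 rose by 1.17 on the log2 scale (1.06 to 1.28), or 2.25-fold, in the step to E12.5, and the next differences were 0.03 (-0.05 to 0.12) and -0.29 (-0.40 to -0.19).

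Amhr2 was the only one of the 9 genes with a RefSeq promoter window whose window held AAGGTCA, the core of the site bound by Nr5a1, a nuclear receptor of gonadal somatic cells. Both strands were searched (TGACCTT on the other), and 4.72% of all 32851 windows hold these letters. The 30 bases around the match are shown with the motif in capitals, at chr15:102445126-102445155 on the plus strand of GRCm38.p6. The motif starts 231 bases before the RefSeq start of Amhr2, and 13 of the 30 bases lie on the first exon of a longer transcript in the deposited annotation.
Amhr2: accttcttccAAGGTCAgtaggggtagaga
TGACGT, part of the site of the cAMP-responsive factor CREB (ACGTCA on the other strand), was in 7.51% of all windows and in none of the 9. A match in these letters is a description and not a binding site. The window of Inha lies for 160 of its 250 upstream bases on the first deposited exon, and that of Acvr2b for all 250, so neither is printed. Bmp7 was not matched.

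The levels of the 2 activin type II receptors crossed between E12.5 and E13.5. Acvr2a, on chromosome 2 (mm10, 48814109 to 48903264, plus strand, 12 exon blocks, 5705 exonic bases), had 1876, 1465, 1852 and 774 counts and a TMM-scaled level of 9.60 (9.17 to 10.04), 8.18 (7.77 to 8.61), 8.20 (7.83 to 8.59) and 7.21 (6.71 to 7.73) from E11.5 to E14.5. Acvr2b, on chromosome 9 (mm10, 119401735 to 119442137, plus strand, 10 exon blocks, 11098 exonic bases), had 5812, 3272, 3336 and 1183 counts and a level of 15.3 (14.9 to 15.7), 9.40 (9.08 to 9.72), 7.60 (7.34 to 7.86) and 5.66 (5.34 to 5.99). Acvr2b was lower in each library than in the one before beyond the counting interval, whereas E12.5 and E13.5 were level for Acvr2a. The log2 differences of Acvr2b were -0.70 (-0.76 to -0.64), -0.31 (-0.38 to -0.24) and -0.42 (-0.52 to -0.33) from step to step, and -0.73 (-0.83 to -0.63) over E12.5 to E14.5, all under 2-fold. Those of Acvr2a were -0.23 (-0.33 to -0.13), 0.00 (-0.10 to 0.10) and -0.19 (-0.31 to -0.07). In order of time, Acvr2a stood at 0.628 (0.596 to 0.662), 0.871 (0.818 to 0.927), 1.08 (1.02 to 1.14) and 1.27 (1.16 to 1.40) of the level of Acvr2b. The more abundant of the pair was thus Acvr2b up to E12.5 and Acvr2a from E13.5. Exons of Acvr2a share 511 bases with Orc4 on the other strand, which had 976 to 2306 counts, and only strand tells their reads apart.

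Bmpr1a and Bmpr2, the type I and type II BMP receptors, were the steadiest of the 10 genes. Bmpr1a, on chromosome 14 (mm10, 34411061 to 34503529, minus strand, 14 exon blocks, 5847 exonic bases), had 7099, 5779, 7867 and 3633 counts and a TMM-scaled level of 35.4 (34.6 to 36.3), 31.5 (30.7 to 32.3), 34.0 (33.3 to 34.8) and 33.0 (31.9 to 34.1). Bmpr2, on chromosome 1 (mm10, 59764270 to 59878081, plus strand, 13 exons, 11096 exonic bases), had 10036, 9346, 12406 and 5955 counts and a level of 26.4 (25.9 to 26.9), 26.8 (26.3 to 27.4), 28.3 (27.8 to 28.8) and 28.5 (27.8 to 29.2). The log2 differences in the 4 comparisons ran from -0.17 to 0.11 for Bmpr1a and from 0.01 to 0.09 for Bmpr2. Bmpr1a stood at 1.34 of the level of Bmpr2 at E11.5 (1.302 to 1.38) and at 1.16 to 1.20 later. Amhr2 stood at 0.504 (0.472 to 0.539), 1.12 (1.06 to 1.17), 1.09 (1.04 to 1.13) and 0.878 (0.820 to 0.938) of the level of Bmpr2 in order of time.

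The order of levels within a library changed with the subunits. At E11.5 it was Bmpr1a, Bmpr2, Acvr2b, Amhr2, Bmp4, Acvr2a, Inhbb, Inha, Bmp7 and Inhba from highest to lowest, and neighbours among Inhbb, Inha and Bmp7 did not differ beyond the counting interval. At E12.5 it was Bmpr1a, Inha, Amhr2, Bmpr2, Inhbb, Acvr2b, Acvr2a, Bmp7, Inhba and Bmp4, with neighbours among the first 3, and Bmpr2 and Inhbb, not separated. At E13.5 it was Inha, Bmpr1a, Amhr2, Bmpr2, Inhbb, Acvr2a, Inhba, Acvr2b, Bmp7 and Bmp4, and neighbours among Acvr2a, Inhba and Acvr2b were not separated. At E14.5 it was Inha, Bmpr1a, Bmpr2, Amhr2, Inhbb, Inhba, Acvr2a, Acvr2b, Bmp7 and Bmp4, each above the next beyond the counting interval. Inhba thus went from the last place to the sixth, and Bmp4 from the fifth to the last.

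Set beside all features, the step from E11.5 to E12.5 held more of the 10 genes past 2-fold than the later steps. In that step 5 of 10 passed, 4 higher (Inha, Inhba, Inhbb and Amhr2) and 1 lower (Bmp4), where 19.1% of all features tested passed, 9.6% higher and 9.51% lower. At E13.5 against E12.5 only Inhba passed, as 1 of 10, where 6.76% of features passed, 3.85% higher and 2.91% lower. At E14.5 against E13.5 none of the 10 passed, where 11% of features passed, 7.66% higher and 3.35% lower. At E14.5 against E12.5 Inha and Inhba passed, both higher, where 14.2% of features passed, 9.63% higher and 4.54% lower. In these 3 comparisons the share of the 10 genes was thus near the share of all features. The latter also covers features with far fewer counts than most of the 10 genes. With at least 10 counts in each library, 355 features passed at E13.5 against E12.5 instead of 1360. The libraries from E12.5 on each enter more than 1 of the 4 comparisons.

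Under stricter rules, fewer of the 10 genes passed. With a log2 fold change of at least 2, Inhba and Bmp4 passed at E12.5 (7.32% of features), none at E13.5 (1.35%) or at E14.5 against E13.5 (3.08%), and Inhba at E14.5 against E12.5 (4.32%). With edgeR's exact test at a preset biological coefficient of variation (BCV) of 0.2, Amhr2 was no longer called at E12.5, so 4 of 10 were (9.07% of features). At that setting Inhba was not called at E13.5 (0.254%), none was at E14.5 against E13.5 (2.41%), and only Inhba was at E14.5 against E12.5 (3.98%). At a BCV of 0.4 none of the 10 was called in any comparison, where 1.41%, 0.00497%, 0.154% and 0.353% of features were. These presets stand in for the spread between pools, which was not measured.

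**Figure D4:**
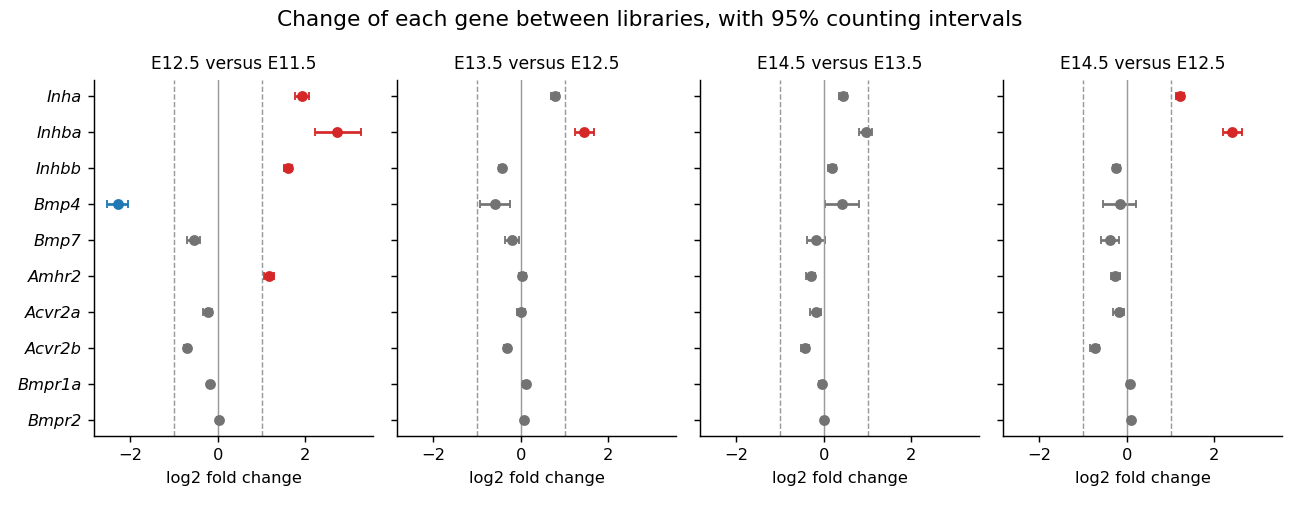
Log2 fold change (later over earlier) of the 10 genes in 4 comparisons of 1 library each, with the exact 95% counting interval. Dashed lines mark 2-fold and coloured points lie past it, which are 5 genes at E12.5 against E11.5, Inhba at E13.5 against E12.5, none at E14.5 against E13.5, and Inha and Inhba at E14.5 against E12.5.

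The plot of fold changes shows intervals that lie on 1 side of 0 for most genes even where 2-fold was not reached, as counting error alone is narrow at this depth. The interval lay on 1 side of 0 for 9 of 10 genes at E12.5, where it did for 54.6% of all features, and for 8, 7 and 9 of 10 in the other 3 comparisons, where it did for 35.3%, 35.9% and 44.6%. Scarce features have wider intervals, so these shares are not those of features as deep as the 10 genes. The place of a gene among all features does not depend on the scale between libraries. Among features with 100 counts or more in either library, the change of Inhba was above that of 98.98%, 99.6% and 97.0% in the 3 consecutive steps. The change of Inha was above that of 97.7%, 97.8% and 92.9% of those features. Bmp4 was above only 1.64% at E12.5 and 1.67% at E13.5, but above 92.7% at E14.5. Inhbb went from above 97.0% at E12.5 to above 3.49% at E13.5. Acvr2b was above 8.73%, 6.68% and 5.11% in the 3 steps, near the low end each time.

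The E14.5 values moved with the scale more than the others did. That library held the most Rn18s-rs5 counts, whose part in the shift was not tested. Scaled by total counts, the median log2 difference of all features was -1.07 at E14.5 against E13.5 and -1.04 against E12.5, and 6 of the 10 genes passed 2-fold at E14.5 against E13.5, all lower (61.9% of features passed), and 7 against E12.5, 6 of them lower and Inhba higher (57.2%). On the ratio of deposited TPM the shift was -1.63 and -1.49, and 9 and 8 of 10 passed, all lower (88.9% and 82.7% of features). With the TMM factors replaced by DESeq2 size factors, all 40 log2 fold changes of the 10 genes stayed within their counting intervals.

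The 5 genes that passed 2-fold between consecutive time points were matched with the genes nearest to them, by the largest absolute difference over the 3 consecutive log2 fold changes among 9619 or 9620 genes that had 200 counts or more in each of the 4 libraries. Nearest to Inha were Thbd at 0.19, Emilin3 at 0.30 and Col6a1 at 0.32, with 16 genes within 0.5. Nearest to Inhba were Hbb-bs at 0.62, Thbd at 0.67 and Col6a1 at 0.70, with 0 genes within 0.5. Nearest to Inhbb were Mybl1 at 0.10, Anxa11 at 0.14 and Col14a1 at 0.18, with 78 genes within 0.5. Nearest to Bmp4 were Ecm1 at 0.33, Vldlr at 0.37 and Nr2f1 at 0.42, with 4 within 0.5, and nearest to Amhr2 were Papln at 0.09, Anxa4 at 0.11 and Fkbp5 at 0.11, with 404 within 0.5. Among these candidates Inhba had the fewest near neighbours of the 5 genes, and Amhr2 the most. Inhba (38 counts at E11.5) and Bmp4 (90 at E14.5) did not reach 200 counts in each library, so genes as scarce were left out. Star, left out with 171 counts at E11.5, had log2 fold changes of 2.68, 1.47 and 0.57, where Inhba had 2.72, 1.45 and 0.95. The numbers of near neighbours of Inhba and Bmp4 therefore depend on that line.

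The other genes of the pathway were taken from a list of 67, of which 59 passed the filter on low counts. In the step to E12.5, 8 of the 59 rose and 9 fell (19.1% of all features passed in either direction). At E13.5 2 rose and 3 fell, at E14.5 5 rose and 5 fell against E13.5, and 4 rose and 4 fell at E14.5 against E12.5, where 6.76%, 11% and 14.2% of all features passed. The median log2 fold change of the 59 was 0.04, 0.01, 0.03 and 0.00 in the 4 comparisons, beside medians within 0.01 of 0 over all features.

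Among the other ligands, Amh, the ligand of Amhr2, went from 45 counts at E11.5 to 8900, 10299 and 5683 on the following days. Amh rose by 7.75 on the log2 scale (7.33 to 8.21) in the step in which Amhr2 rose by 1.17, and stood at a level of 133 to 155 afterwards. Bmp2, a BMP made by pregranulosa cells, had 479, 1138, 1899 and 378 counts. Bmp2 rose by 1.38 (1.22 to 1.53) at E12.5 and fell by 1.26 (-1.42 to -1.10) at E14.5 against E13.5. Bmp5 fell by 1.27 (-1.54 to -1.01) at E12.5, from 437 to 166 counts. Bmp6 rose by 2.94 (2.71 to 3.17) at E14.5, from 202 counts at E13.5 to 737, and its level of 16.2 there was above that of Bmp4 (2.01), Bmp7 (4.096) and Bmp2 (5.63). Over the 17 other ligands that passed the filter, 5 rose and 3 fell at E12.5 (9.6% and 9.51% of all features). At E13.5 1 fell (2.91%), and at E14.5 against E13.5 3 rose and 1 fell (7.66% and 3.35%). Several of these calls rest on few counts. At E12.5 Bmp8a went from 8 to 43 counts, Gdf3 from 16 to 97, Gdf15 from 7 to 28 and Gdf5 from 37 to 5. Bmp3 went from 25 to 7 counts at E13.5 and back to 25 at E14.5.

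Of the 12 other receptors, none rose in the 4 comparisons, where 9.6%, 3.85%, 7.66% and 9.63% of all features did. At E12.5 1 fell (9.51% of all features), and at E13.5 1 fell (2.91%). Bmpr1b, a type I BMP receptor, fell by 1.49 (-1.71 to -1.27) at E12.5, from 677 to 221 counts, and stayed at a level of 0.987 to 1.16, against 31.5 to 34.0 for Bmpr1a. Acvr1c, a type I receptor of activin and Nodal, fell by 1.29 (-1.64 to -0.95) at E13.5, from 210 to 108 counts. The type I receptors Acvr1, Acvr1b and Tgfbr1 had log2 differences from -0.24 to 0.33 in the 3 consecutive comparisons. Tgfbr3 (betaglycan), the co-receptor through which inhibin blocks activin, had 1789, 3122, 3971 and 1937 counts, with log2 differences of 0.93 (0.85 to 1.02), 0.01 (-0.06 to 0.08) and 0.04 (-0.04 to 0.11).

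The antagonists moved in both directions at E12.5, where 3 of 14 rose and 4 fell (9.6% and 9.51% of all features). Some of these calls rest on few counts. Cer1 went from 5 to 12 counts and Chrdl2 from 25 to 11, both with an interval that spans 0, and Grem1 from 34 to 6. Follistatin (Fst), which binds and neutralises activins, had 433, 1618, 2420 and 814 counts in order of time. Fst rose by 2.03 on the log2 scale (1.88 to 2.19) at E12.5, between the rises of Inhba and Inhbb in size, and the next differences were 0.25 (0.15 to 0.34) and -0.50 (-0.62 to -0.38). Bmper and Chrdl1, which bind BMPs outside the cell, fell by 2.45 (-2.67 to -2.24) and 2.89 (-3.83 to -2.11), from 1267 to 212 and from 115 to 14 counts. Sostdc1, an antagonist of BMP and Wnt ligands, had 79, 126, 437 and 457 counts. Sostdc1 rose by 1.46 (1.17 to 1.76) at E13.5 and, on the TMM scale, by 1.14 (0.94 to 1.33) at E14.5. With total counts the step to E14.5 was under 2-fold, and the deposited TPM of Sostdc1 went down there from 12.98 to 9.29.

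**Figure D5:**
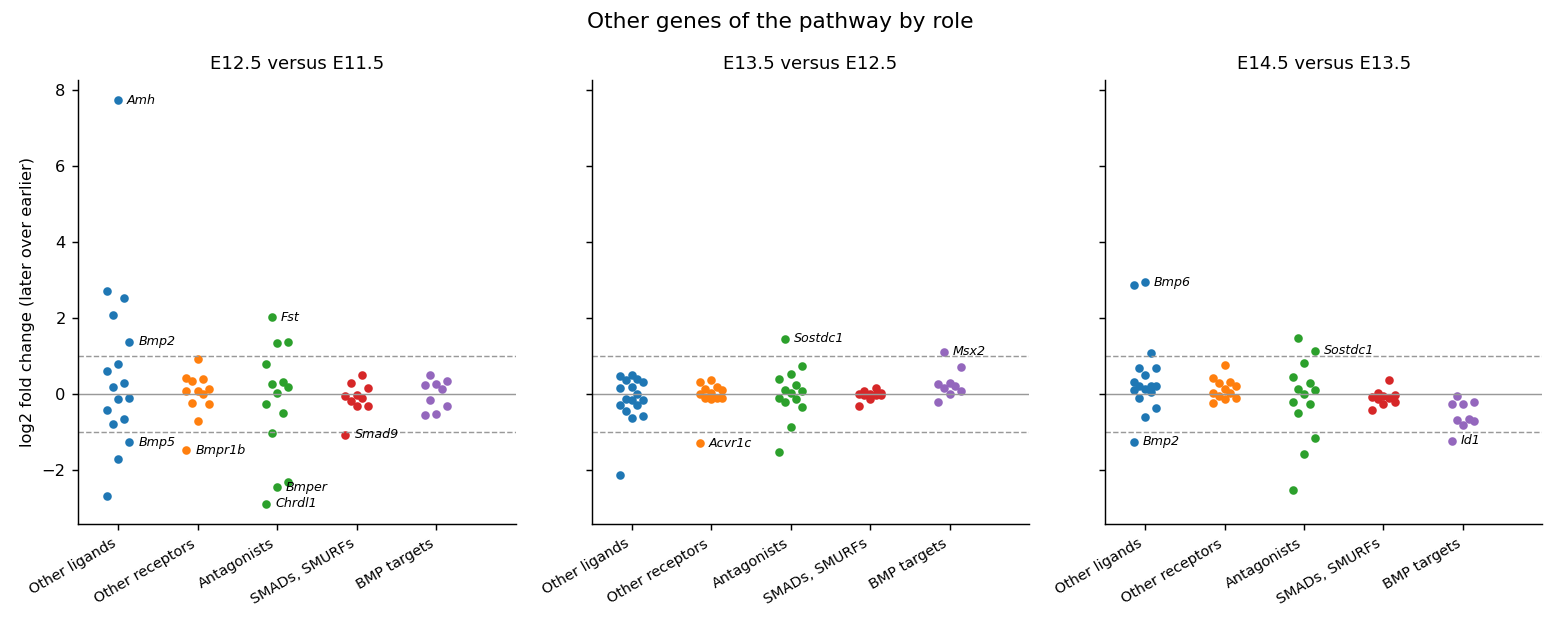
Log2 fold change (later over earlier) of the 59 other pathway genes in the 3 consecutive comparisons, 1 library each, grouped as ligands, receptors, antagonists, SMADs with SMURFs, and BMP target genes. Dashed lines mark 2-fold and genes past it with 100 counts or more in either library are named. Amh stands highest at 7.75, and the points of the 9 BMP target genes lie below 0 at E14.5 against E13.5, with an interval that spans 0 for Smad7. Smad6, Smad7 and Bambi are each plotted in 2 groups.

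The plot of the other pathway genes shows the SMADs and SMURFs close to 0 throughout. Of these 10 genes only Smad9 passed 2-fold, as it fell by 1.07 (-1.30 to -0.85) at E12.5, from 543 to 236 counts. Of the 9 BMP target genes (Id1 to Id4, Msx1, Msx2, Smad6, Smad7 and Bambi), none passed at E12.5, Msx2 rose by 1.11 (0.79 to 1.45) at E13.5, and Id1 fell by 1.23 (-1.38 to -1.09) at E14.5 against E13.5, from 2337 to 473 counts. The ID genes encode inhibitors of bHLH transcription factors and are induced by BMP signals in many cells. At E14.5 against E13.5 the log2 differences were -0.68 (-0.79 to -0.58) for Id2, -0.66 (-0.75 to -0.58) for Id3 and -0.26 (-0.47 to -0.06) for Id4. For Smad7 it was -0.04 (-0.12 to 0.03). The median of the 9 targets in that comparison was -0.66, beside -0.01 over all features, and at E14.5 against E12.5 it was -0.37.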

How the data were processed

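Total RNA of 4 pools of mouse fetal gonads was analysed, 1 library per time point, mapped to the time points by their titles. The authors depleted ribosomal RNA with probes and RNase H, made stranded libraries with molecular identifiers (UMIs), aligned reads to mm10 with STAR, removed duplicates with UMI-tools and counted reads per gene with featureCounts in a vendor toolkit. Its versions, annotation and strand setting are not given in the sources used here. The deposited counts are these deduplicated reads, not normalized. The deposited RPKM and TPM were computed by the authors from the counts and exon lengths. RPKM was not used, and TPM recomputed from the counts differed by at most 4.4e-10.

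Counts were kept by edgeR's filterByExpr with each library as its own group (20114 of 40999 features) and scaled by TMM over the 4 libraries. Log2 fold changes used a prior count of 0.25 and carry exact Clopper-Pearson 95% intervals, levels carry exact Poisson intervals, and changes of ratios carry Wald intervals. A gene was called at an absolute log2 fold change of at least 1, with no test, since each time point has 1 library. As an alternative, edgeR's exact test was run at preset biological coefficients of variation (BCV) of 0.1, 0.2 and 0.4 with a false discovery rate of 0.05. Other alternatives were DESeq2 size factors, total counts, the ratio of deposited TPM, TMM over the compared pair, TMM that left out rRNA and each library's 10 most abundant genes, no filter, at least 10 counts in each library, a prior count of 2, and stricter lines.

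The genes and lists were chosen with earlier results of these data known. Some genes of the pathway and marker lists are not reported here, and the counts, sums and medians of those lists leave them out. Of the other pathway genes, those past 2-fold between consecutive time points that reached 100 counts in either library are named, together with Amh, Bmp2, Fst, Tgfbr3, Bmpr1b, Acvr1, Acvr1b, Tgfbr1 and Id1 to Id4. For each of the 10 genes past 2-fold, the 3 nearest genes that had 200 counts or more in each of the 4 libraries are named. Scaling and exact tests used edgeR 4.0.16 and DESeq2 1.42.0 (R 4.3.3), tables and intervals used pandas 2.3.3, scipy 1.17.1 and numpy 2.4.6 (Python 3.11.15), and figures used matplotlib 3.10.9.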

Additional observations from a re-analysis of the deposited data

How the results depend on the processing

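All 40 log2 fold changes of the 10 genes stayed within their counting intervals with DESeq2 size factors, with TMM over the compared pair, with TMM without rRNA and the most abundant genes (49 left out), and with a prior count of 2. With total counts 28 of 40 lay outside and 7 changed sign, and with the deposited TPM 36 lay outside and 10 changed sign. With both these were Inha, Inhba, Inhbb, Bmp4 and Bmpr2 at E14.5 against E13.5, and Bmpr1a and Bmpr2 at E14.5 against E12.5. With TPM they were also Acvr2a and Bmpr1a at E12.5 and, the only one of the 10 past 2-fold on the TMM scale, Inha at E14.5 against E12.5 (-0.27). The 28 ratios within libraries were the same with TPM. No paired analysis was possible because each time point has 1 library and the labels give no replicate numbers. Values below are in the order E12.5 against E11.5, E13.5 against E12.5, E14.5 against E13.5 and E14.5 against E12.5.

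Of the 10 genes, 5, 1, 0 and 2 passed 2-fold. With a line of 2 on the log2 scale the counts were 2, 0, 0 and 1. With the exact test at a preset BCV of 0.2 they were 4, 0, 0 and 1, as Amhr2, Inhba and Inha dropped out in turn, and at 0.4 they were 0 in all 4 comparisons. At E14.5 against E13.5 and against E12.5, total counts gave 6 and 7, and TPM gave 9 and 8, all lower except Inhba with total counts against E12.5.

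Of the 59 other pathway genes, 17, 5, 10 and 8 passed. The counts were 8, 3, 4 and 4 with at least 10 counts in each library, and 9, 1, 3 and 4 with a line of 2 on the log2 scale. They were 12, 1, 4 and 4 with the counting interval outside 2-fold, 15, 4, 5 and 6 at a BCV of 0.1, 12, 0, 2 and 4 at 0.2, and 1, 0, 0 and 0 at 0.4. At E14.5 against E13.5 and against E12.5, total counts gave 35 (2 higher, 33 lower) and 33 (2 and 31), and TPM gave 52 (2 and 50) and 48 (2 and 46).

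Of all features, 3843, 1360, 2213 and 2851 passed. The counts were 9868, 7436, 11770 and 9050 without a filter, 2054, 355, 899 and 1308 with at least 10 counts, 1472, 271, 620 and 869 with a line of 2 on the log2 scale, and 1760, 176, 605 and 912 with the interval outside 2-fold. They were 2791, 366, 941 and 1504 at a BCV of 0.1, 1824, 51, 485 and 800 at 0.2, and 283, 1, 31 and 71 at 0.4. On the TMM scale the splits at E14.5 were 1540 higher and 673 lower against E13.5, and 1937 and 914 against E12.5. Total counts gave 12443 (413 higher, 12030 lower) and 11499 (587 and 10912), and TPM gave 17874 (239 and 17635) and 16631 (370 and 16261). TPM also moved the earlier splits, from 1931 higher and 1912 lower to 2645 and 1407 at E12.5, and from 774 and 586 to 1023 and 481 at E13.5. Fewer features are tested under the filters by construction, and the total count of the E14.5 library holds 40.7% 18S RNA. With 1 library per time point, no spread between embryos or pools was measured, and depth limits Inhba at E11.5 (38 counts) and Bmp4 at E14.5 (90 counts).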
